A study of Mus musculus with 12 samples.

Results

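Metallothioneins are small cysteine-rich proteins that hold zinc and copper in the cytosol and buffer them. Their genes are switched on by the zinc-sensing transcription factor MTF1, and glucocorticoids and oxidative stress raise them as well. In bone marrow they are known as abundant transcripts of erythroid precursors. The data described here are the 2 genes Mt1 and Mt2, of 27998 genes counted. They were selected on their own UMI counts in these libraries, per cell class and genotype, so their levels are given as a description and without a test.

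Bone marrow cells of mice were enriched for c-Kit, a receptor of blood progenitors, on magnetic columns, and their transcripts were counted by droplet single-cell RNA-seq as unique molecular identifiers (UMIs). The 12 libraries came from 4 genotypes, all on a C57BL/6 background, and each genotype had 1 library at each of 3 times. The mutant alleles were switched by Mx1-Cre, an interferon-inducible recombinase that also acts outside blood cells. Mice aged 8 to 12 weeks per the labels (the study's text gives a younger age) received pIpC, which induces the recombinase, in 5 injections, the WT mice included. E2-KO mice were Mx1-Cre+;Ezh2 f/f and lost Ezh2, the methyltransferase of histone H3 lysine 27. G12D mice were Mx1-Cre+;NRas G12D+/- and carried 1 activated Nras allele. G12D/E2-KO mice (Mx1-Cre+;NRas G12D+/-;Ezh2 f/f) had both changes, and WT mice had no Mx1-Cre. T1 marrow was taken 2 weeks after pIpC, T2 marrow after 2 months and T3 marrow after 4 months, and how many mice each library holds was not given in the sources used here. The names of cells inside the tables number these times from T0, and those in the table of E2-KO T3 write the genotype in another way than its other tables. Times and same-time pairs follow the labels, and this difference was not resolved. The SDs below are over the 3 time points of a genotype, so they hold the spread between times as well as between mice.

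Of the 5648 cells in the table of G12D T1, 2896 were also in that of G12D/E2-KO T1, 1494 of them with equal counts in every gene. They made up 2896 of the 3044 cells of the latter table. The sources used here do not say which library they came from, so their owner is uncertain. They were kept with G12D/E2-KO T1 only, since that table holds few other cells, which left 32701 of 35597 cells. The other 65 pairs of tables shared no cell. Libraries held 2350 to 3767 cells and 12636998 to 23646292 UMIs, with a median of 3780 to 6976 UMIs per cell. Ezh2 itself was at 15.2 to 20.1 UMIs per 1000000 (CPM) in early granulocytic cells of the 6 libraries with the deletion and at 64.8 to 89.4 CPM in those of the other 6. G12D/E2-KO T1, counted with the shared cells, is among the 6 with the deletion. In the shared cells alone Ezh2 was not measured. Xist, which marks cells of females, had a UMI in 87.0 to 88.5% of cells in the T3 libraries of WT, E2-KO and G12D and in at most 0.436% of cells in the other 9. At T3, sex and genotype thus differ together. Within WT, E2-KO and G12D, sex also differs between T3 and the earlier times, so their SDs hold it too. The parts of sex, time and genotype were not tested.

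Both genes lie on chromosome 8 in the same direction, with Mt2 first. In the GENCODE annotation of GRCm38 (mm10), Mt2 (ENSMUSG00000031762) spans 94172664 to 94173568 on the plus strand and Mt1 (ENSMUSG00000031765) spans 94179082 to 94180327, with 5513 bases between them. Each has 3 exons and 183 coding bases, of which 28, 66 and 89 lie in exons 1, 2 and 3. Mt3 and Mt4, the family members of brain and of stratified epithelium, lie upstream of Mt2. An antisense gene, Gm45774, overlaps 749 bases of Mt2 on the minus strand and has no column in the count tables. The longest stretch that the main transcripts of Mt1 (549 bases) and Mt2 (511 bases) share is 20 bases, so a read longer than that can be told apart.

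The promoters are shown because they hold the element that MTF1 reads. The sequences are from RefSeq (GRCm38.p6), plus strand, cut at the start of the annotated transcript, at 94178839 to 94179081 for Mt1 and at 94172368 to 94172663 for Mt2. Capitals mark matches on either strand to the core of the metal response element, searched as TGCACNC and TGCGCNC.

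Mt1: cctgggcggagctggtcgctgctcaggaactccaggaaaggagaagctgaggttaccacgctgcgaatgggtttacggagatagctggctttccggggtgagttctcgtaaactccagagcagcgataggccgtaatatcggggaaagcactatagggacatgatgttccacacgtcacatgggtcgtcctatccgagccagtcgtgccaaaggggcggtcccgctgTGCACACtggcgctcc

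Mt2: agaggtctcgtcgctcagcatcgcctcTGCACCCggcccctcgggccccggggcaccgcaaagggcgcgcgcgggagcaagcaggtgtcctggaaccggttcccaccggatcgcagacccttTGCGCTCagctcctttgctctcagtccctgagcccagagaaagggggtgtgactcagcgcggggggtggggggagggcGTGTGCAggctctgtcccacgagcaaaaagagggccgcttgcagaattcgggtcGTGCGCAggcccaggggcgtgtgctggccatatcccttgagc

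The whole RefSeq promoter window, which runs past the start, held 4 matches in Mt2 and 3 in Mt1, of which 2 in Mt1 lie past the end of the sequence shown. Of 32851 such windows in the genome, 25.7% held at least 1 match, 1.97% held at least 3 and 0.517% held at least 4. The Mt2 window also held 1 match to the antioxidant response element, searched as TGACNNNGC on both strands, which 12.4% of windows hold. The Mt1 window had no match to it, and sequence beyond the windows was not searched. A match is a run of letters and does not show that a factor was bound.

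Over all cells, Mt1 was higher in the libraries without Ezh2. In WT it was at 464, 458 and 564 CPM at T1, T2 and T3, and in E2-KO at 719, 693 and 776 CPM. In G12D it was at 410, 503 and 403 CPM, and in G12D/E2-KO at 482, 689 and 985 CPM. All 3 E2-KO values lay above all 3 WT values, as did those of 15.8% of the 13143 genes with enough counts to compare. Genes in such shares, here and in the classes below, were not matched to Mt1 or Mt2 in level. The G12D/E2-KO values ran from within the WT range at T1 to the highest of all 12 at T3. The mean was 730 ± 42.5 CPM in E2-KO and 496 ± 59.7 in WT (SD, n = 3), a ratio of 1.47. It was 438 ± 56.0 CPM in G12D and 719 in G12D/E2-KO, ratios of 0.885 and 1.45. Mt1 was higher with the deletion in 6 of 6 pairs of the same Nras genotype and time, as were 12.0% of genes.

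Mt2 over all cells did not follow this. It was at 185, 150 and 264 CPM in WT and at 209, 241 and 302 CPM in E2-KO. In G12D it was at 100.5, 180 and 73.8 CPM, and in G12D/E2-KO at 93.3, 125 and 288 CPM. The 4 genotypes overlapped, and G12D/E2-KO was below WT at T1 and T2 and above it at T3. In bulk values like these, fewer cells of a class and less RNA per cell cannot be told apart, so the classes are given next.

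**Figure D1:**
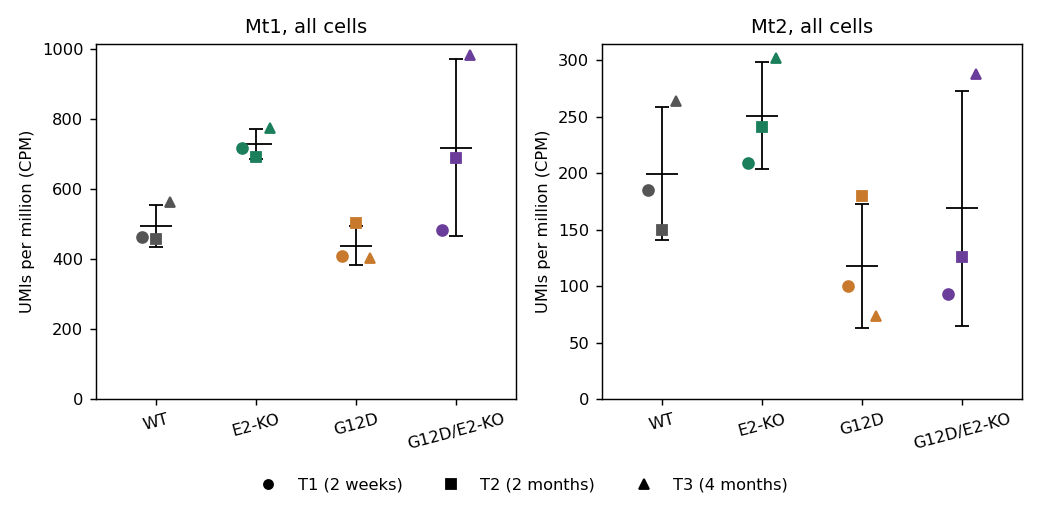
CPM of Mt1 (left) and Mt2 (right) over all cells, 1 symbol per library with its time point, and the mean ± SD of the 3 libraries of a genotype. The 3 E2-KO values of Mt1 sit at 693 to 776, above the WT values of 458 to 564, while the genotypes overlap for Mt2.

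Cells were put into classes by marker genes that did not include Mt1 or Mt2. Levels of some genes from these marker lists are given as a description only, since the gate itself sets much of them. Elane, a granule protease of early granulocytes, was at 9693 CPM in early granulocytic cells and 73.8 in early erythroid ones (mean of 12 libraries). Pf4, a platelet chemokine, was at 14637 CPM in megakaryocytic cells and 35.9 in stem cells. Hlf, a stem cell transcription factor, was at 131 CPM in stem cells and 7.21 in early granulocytic ones. A class held 67 to 254 stem, 241 to 894 early granulocytic, 255 to 955 late granulocytic, 122 to 499 early erythroid and 15 to 127 megakaryocytic cells per library, and 4718 cells were in no class.

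In WT marrow Mt1 was a gene of 2 lineages and Mt2 mostly of 1. Mt1 was highest in early erythroid cells, at 995 ± 73.8 CPM (SD, n = 3 libraries), and next in early granulocytic cells, at 665 ± 48.7 CPM. These classes did not overlap each other, nor did early granulocytic and monocytic cells (345 ± 23.8 CPM). Monocytic cells and megakaryocyte-erythroid progenitors (MEP, 310 ± 133 CPM) could not be ordered. Megakaryocytic cells were at 149 ± 46.2 CPM, late granulocytic cells at 61.1 ± 0.688 and stem cells at 44.3 ± 29.4, a range that overlapped those of late granulocytic and B lymphoid cells.

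Mt2 was also highest in early erythroid cells, at 585 ± 86.3 CPM, with no other class overlapping. MEP followed at 94.9 ± 76.8 CPM, then dendritic cells at 57.1 ± 73.2 and macrophages at 48.3 ± 17.6. Late erythroid cells were at 31.5 ± 1.01 CPM, megakaryocytic cells at 30.3 ± 28.6, early granulocytic cells at 12.6 ± 3.04, late granulocytic cells at 10.5 ± 5.16 and stem cells at 6.10 ± 3.81. Below early erythroid cells each class overlapped the next in the order. Early erythroid cells gave 87.6 ± 2.73% of all Mt2 UMIs in WT and 59.2 ± 7.81% of Mt1 UMIs, while they gave 29.6% of UMIs of all genes. Early granulocytic cells gave 19.4 ± 7.99% of Mt1 and 0.903 ± 0.297% of Mt2 UMIs.

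**Figure D2:**
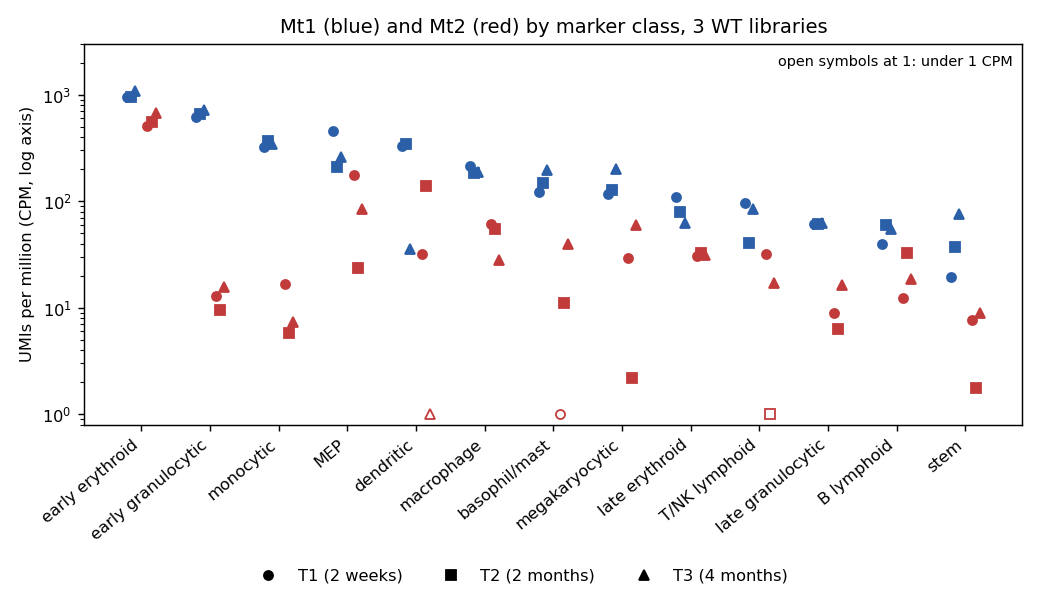
CPM of Mt1 (blue) and Mt2 (red) on a log axis in each marker class of the 3 WT libraries, with classes ordered by the mean of Mt1. Both genes are high in early erythroid cells, and in early granulocytic cells Mt1 is at 615 to 713 while Mt2 is at 9.51 to 15.6.

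The ratio of the 2 genes differed between early erythroid and early granulocytic cells. Counts are of 3′ tags, 1 per molecule, so they need no scaling by length, but capture may differ between genes and the ratio is compared only between samples. In early erythroid cells there were 1.71 ± 0.125 Mt1 UMIs per Mt2 UMI in WT, 1.68 ± 0.0984 in G12D, 1.48 ± 0.0827 in E2-KO and 1.42 ± 0.0225 in G12D/E2-KO (SD, n = 3). In early granulocytic cells the ratio was 54.6 ± 13.5 in WT and 96.4 ± 17.4 in G12D. These ratios have 22 to 44 Mt2 UMIs per library as denominator, so they are rough values. With Ezh2 deleted it was 20.8 ± 4.01 in E2-KO and 26.9 ± 3.38 in G12D/E2-KO. The libraries with the deletion were at 16.9 to 30.6 and the others at 45.7 to 116 in early granulocytic cells, and at 1.38 to 1.53 and 1.58 to 1.83 in early erythroid cells. How many other pairs of genes give ratios that separate in this way was not computed, so nothing particular to Mt1 and Mt2 is read from it.

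**Figure D3:**
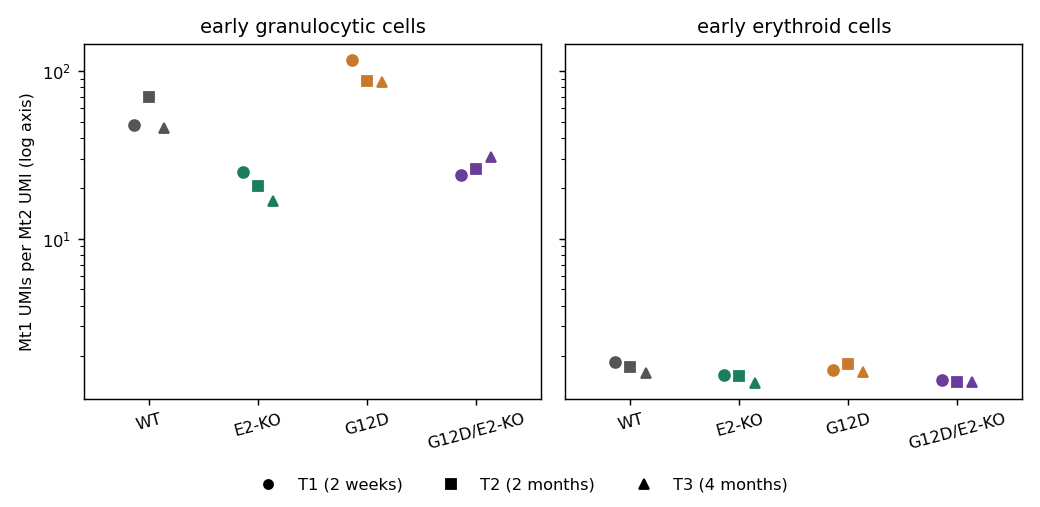
Mt1 UMIs per Mt2 UMI on a log axis in early granulocytic (left) and early erythroid (right) cells, 1 symbol per library. Libraries of E2-KO and G12D/E2-KO lie lower in both panels, at 16.9 to 30.6 in early granulocytic cells against 45.7 to 116 in WT and G12D.

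At the level of single cells both genes were found in most early erythroid cells. In WT early erythroid cells 95.8% of cells had an Mt1 UMI and 89.8% an Mt2 UMI, and 92.1 ± 0.605% of the cells with Mt1 also had Mt2. In WT early granulocytic cells 93.4% had Mt1 but 10.4% had Mt2, and 10.8 ± 2.12% of the cells with Mt1 also had Mt2. That last share was 29.5 ± 1.82% for E2-KO, 22.0 ± 5.48% for G12D/E2-KO and 5.48 ± 0.657% for G12D. In late erythroid cells of the WT libraries it was 11.4, 18.97 and 21.4%. In WT early erythroid and early granulocytic cells the share lay near the Mt2 share of all cells of the class. Of WT early erythroid cells without Mt1, which were few, 25.0, 31.6 and 64.3% had Mt2. Depth was not matched between classes here, and whether the genes occur together beyond their detection was not tested.

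Early granulocytic cells, the progenitors that make the primary granule enzymes, separated the libraries by Ezh2 for both genes. Mt1 was at 615, 666 and 713 CPM in WT and at 1166, 1018 and 1606 CPM in E2-KO. It was at 749, 639 and 698 CPM in G12D and at 1065, 1252 and 1013 CPM in G12D/E2-KO. All 6 libraries with the deletion lay above the other 6, which 2.64% of the 10471 genes compared in this class also did. Each was also above its partner of the same Nras genotype and time in 6 of 6 pairs, as 8.67% of genes were, with ratios from 1.42 to 2.25 (median 1.71). The means were 665 ± 48.7 CPM in WT, 1264 in E2-KO, 695 with G12D alone and 1110 for both changes together (n = 3).

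Mt2 was lower in level but moved further. It was at 12.9, 9.51 and 15.6 CPM in WT and at 46.8, 49.5 and 95.05 CPM in E2-KO. It was at 6.43, 7.36 and 8.13 CPM in G12D and at 44.5, 47.7 and 33.1 CPM in G12D/E2-KO. The 6 libraries with the deletion were at 33.1 to 95.05 CPM and the others at 6.43 to 15.6 CPM, with no overlap, as for 2.64% of genes, and the 6 pairs gave ratios from 3.64 to 6.92 (median 5.65), all higher, as for 8.67%. The E2-KO mean was 5.04 times the WT mean, a log2 ratio of 2.33, and the log2 ratio was 1.93 without E2-KO T3, the highest library. The UMIs behind these values were 22 to 44 in a WT library, 25 to 27 in a G12D library and 165 to 266 in a library with the deletion.

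G12D alone had less Mt2 than WT in early granulocytic cells at each of the 3 times, a ratio of means of 0.578, with no overlap, as for 7.11% of genes. With the shared cells left in G12D T1, the G12D mean was above WT (log2 ratio 0.17). Free RNA in droplets can give UMIs in cells that do not express a gene, and its level was not measured. B lymphoid cells are given beside, as another cell type of the same libraries. Whether their Mt1 and Mt2 UMIs are their own or free RNA was not tested. Cells with under 2000 UMIs were left out of the thinned shares here and below. For every other cell the chance of at least 1 UMI of the gene in a draw of 2000 UMIs was computed. A thinned share is the mean of these chances, so it is an expected share and not a count of cells. Cell numbers given beside these shares are of the whole class. For Mt2 in early granulocytic cells the thinned share was 2.31% in WT and 1.52% in G12D. By library, the WT shares were 2.25, 1.81 and 2.86%, against 1.81, 1.29 and 5.21% in B lymphoid classes of 243, 163 and 20 cells. In G12D they were 1.14, 1.75 and 1.69%, against 4.32, 2.13 and 0% in B lymphoid classes of 34, 108 and 43 cells. The early granulocytic share was thus the higher one in WT T1, WT T2 and G12D T3 and the lower one in the other 3 libraries. No difference between G12D and WT is read from these levels. In E2-KO the thinned shares were 8.88, 8.98 and 15.6%, above the 4.68, 4.93 and 9.82% of B lymphoid cells at each time. In G12D/E2-KO they were 7.67, 8.60 and 6.03%, against 5.69% and 2.22% in B lymphoid classes of 53 and 153 cells at T1 and T2. G12D/E2-KO T3 held 1 B lymphoid cell, too few for a share. In CPM, Mt2 in B lymphoid cells was at 27.8, 39.9 and 53.8 in E2-KO and at 84.2 and 16.5 in G12D/E2-KO T1 and T2. At G12D/E2-KO T1 the CPM and the share went opposite ways, so no order is read there. In that library 1 B lymphoid cell held 17 of the 23 Mt2 UMIs of its class. Unthinned, the shares were 10.4% for WT, 5.13% for G12D, 28.9% for E2-KO and 21.4% for G12D/E2-KO, against 5.93%, 4.18%, 11.6% and 4.86% of B lymphoid cells, the last with the single cell counted as a library. The median UMI count of early granulocytic cells was 6911 to 8667 and that of B lymphoid cells 2678 to 4281 (genotype means).

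**Figure D4:**
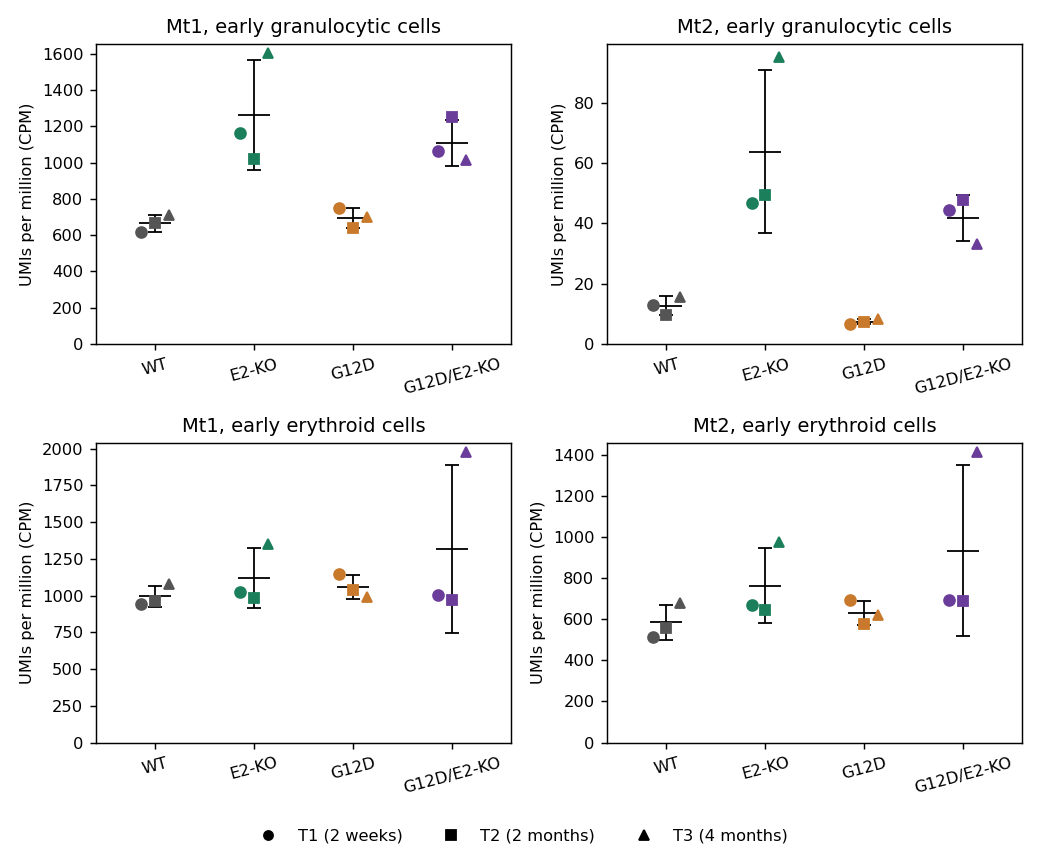
CPM of Mt1 (left) and Mt2 (right) in early granulocytic (top) and early erythroid (bottom) cells, 1 symbol per library and mean ± SD per genotype. In early granulocytic cells the 6 libraries with Ezh2 deleted lie above the other 6 for both genes, and in early erythroid cells G12D/E2-KO T3 stands highest, at 1978 and 1413.

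Erythroid transcripts were present at low levels in early granulocytic cells. Car1, carbonic anhydrase 1, was in early granulocytic cells at 33.4 ± 5.12 CPM for WT, 33.9 ± 7.31 for E2-KO, 28.5 ± 8.79 for G12D and 16.5 ± 9.59 for G12D/E2-KO, against 2067 in WT early erythroid cells. Klf1, the erythroid transcription factor, was at 7.11 ± 2.10, 6.49 ± 1.66, 4.89 ± 1.76 and 3.07 ± 0.676 CPM in the same order. Early granulocytic cells with no UMI of Car1, Klf1, Ermap, Rhd or Aqp1 were also taken alone. The other early erythroid markers were not used for this. In the cells left, Mt2 was at 11.3 ± 1.90 CPM for WT, 70.3 ± 28.5 for E2-KO, 7.90 ± 0.7495 for G12D and 41.2 ± 9.65 for G12D/E2-KO. Mt1 in these cells was at 662, 1287, 702 and 1113 CPM. This choice of cells was made after seeing the data, and the part of erythroid transcripts or free RNA in these levels was not tested.

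Mt1 counts also separated by the deletion in late granulocytic, monocytic, basophil/mast and dendritic cells. In late granulocytic cells, which make secondary granules, it was at 60.6, 60.7 and 61.8 CPM in WT, and at 135, 127 and 180 CPM in E2-KO. It was at 60.8, 51.3 and 45.0 CPM in G12D and at 82.0, 153 and 104 CPM in G12D/E2-KO. Again the 6 libraries with the deletion lay above the other 6, as for 2.78% of the 8552 genes compared. Mt1 in B lymphoid cells was at 39.3, 59.6 and 55.3 CPM in WT, 89.2, 65.8 and 33.2 CPM with G12D, 140, 150 and 281 CPM for E2-KO, and 238 and 92.2 CPM in G12D/E2-KO T1 and T2. Its E2-KO mean in B lymphoid cells was 3.70 times that of WT, beside 1.47 over all cells. The thinned shares with Mt1 were 18.2, 17.6 and 23.2% in E2-KO late granulocytic cells, against 18.4, 18.5 and 33.8% in B lymphoid cells. The WT shares were 9.40, 9.26 and 10.1%, against 5.46, 5.13 and 9.53%, and those of G12D were 8.42, 8.36 and 7.49%, against 6.79, 5.14 and 5.32%. For G12D/E2-KO T1 and T2 they were 11.7 and 20.9%, against 23.6 and 14.2%, and late granulocytic cells of G12D/E2-KO T3 were at 16.3%. The late granulocytic share was thus above the B lymphoid one in all 6 libraries with Ezh2 and in 1 of the 5 without it that could be compared. The part of free RNA in either class was not tested. In monocytic cells the deleted libraries were at 463 to 964 CPM and the others at 304 to 402 CPM, a separation that 1.69% of 8754 genes showed. Their thinned shares with Mt1 were 52.7, 46.6 and 56.6% in E2-KO and 35.9, 42.9 and 42.2% in WT, above those of B lymphoid cells at each time. In basophil/mast cells, with 20 to 148 per library, Mt1 was at 324 to 761 CPM in the deleted libraries and at 116 to 196 CPM in the others, which 0.369% of 4332 genes also did, and it was higher in 6 of 6 pairs. In dendritic cells, with 11 to 159 per library, it was at 354 to 815 CPM against 35.6 to 347 CPM, from 2 to 328 UMIs a library. There 0.0464% of 2157 genes separated, which is 1 gene, Mt1 itself, and the lowest deleted and the highest other library lay close together. The genes compared in these small classes were not matched to Mt1 in level, so how unusual Mt1 is among genes of its level is not known. In macrophages, with 4 to 59 cells per library, Mt1 was higher in 4 of 6 pairs. Classes made from clusters gave the same class to 67.6% of monocytic, 66.4% of basophil/mast, 48.1% of dendritic and 13.3% of macrophage cells. Mt2 in late granulocytic cells was at 2.18 to 16.2 CPM over all 12 libraries, from 6 to 68 UMIs each, and the groups overlapped. There it was higher with the deletion in 4 of 6 pairs. In monocytic, basophil/mast and dendritic cells Mt2 was higher in 5 of 6 pairs, with overlap in each. The share of genes higher in as many pairs was not computed.

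Stem cells and megakaryocytic cells had few Mt1 counts. In stem cells Mt1 was at 19.3, 36.9 and 76.7 CPM in WT and at 62.8, 112 and 147 CPM in E2-KO. It was at 11.2, 26.2 and 90.5 CPM in G12D and at 65.2, 85.3 and 271 CPM in G12D/E2-KO, from 9 to 175 UMIs per library. It was higher with the deletion in 6 of 6 pairs, as were 3.70% of 7000 genes, but the groups overlapped, with the T3 libraries of WT and G12D high. In E2-KO T2, 1 cell held 22 of the 49 Mt1 UMIs, and in G12D T3, 1 cell held 19 of the 45. The thinned share with Mt1 was 10.8, 11.4 and 20.3% in E2-KO stem cells, below the B lymphoid shares in the same libraries. This share was 3.93, 6.94 and 14.2% in WT stem cells, below the B lymphoid one at T1 and above it at T2 and T3. In G12D it was 2.05, 5.45 and 10.6%, again below at T1 only. In G12D/E2-KO stem cells it was 9.99, 12.99 and 30.4%, below the B lymphoid share at T1 and T2, with no share to compare at T3. The part of free RNA in these counts was not tested. By the alternative class assignment from clusters it was higher in 5 of 6 pairs, and that assignment gave 52.5% of the gated stem cells the same class. Mt2 in stem cells rested on 1 to 23 UMIs per library. It was at 7.70, 1.76 and 8.85 CPM in WT and at 12.1, 9.69 and 13.96 CPM in G12D/E2-KO, all 3 above WT, as for 6.09% of genes. In E2-KO it was at 4.19, 52.7 and 19.8 CPM and in G12D at 2.23, 2.91 and 46.2 CPM, ranges that overlapped both. A single cell held 17 of the 23 Mt2 UMIs of E2-KO T2, and another held 20 of the 23 of G12D T3.

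Megakaryocytic Mt1 was at 117, 127 and 202 CPM in WT and at 319, 269 and 320 CPM in E2-KO. It was at 196, 126 and 385 CPM in G12D and at 354, 320 and 579 CPM in G12D/E2-KO. The E2-KO and G12D/E2-KO libraries were all above WT, as were 5.37% and 5.04% of 3351 genes, and the G12D values overlapped all groups. Mt1 was higher with the deletion in 6 of 6 pairs, as were 2.54% of genes. A megakaryocytic library held as few as 15 cells, and in G12D T2 none of 23 cells had an Mt2 UMI. In MEP, Mt1 was higher in 6 of 6 pairs, as were 2.94% of 6180 genes. It ran from 245 ± 28.3 CPM in G12D and 310 ± 133 in WT to 626 ± 291 in E2-KO and 694 ± 198 in G12D/E2-KO. Mt2 in MEP was also higher in 6 of 6 pairs, as were 2.94% of genes. Its means were 62.7 ± 52.1 CPM in G12D, 94.9 ± 76.8 in WT, 231 ± 131 in E2-KO and 267 ± 111 in G12D/E2-KO. The deleted libraries were at 117 to 383 CPM and the others at 6.82 to 176, so they overlapped. The cluster-based classes gave 51.6% of MEP cells the same class, and 12.4% of MEP cells lay near the limits of the marker gate.

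Early erythroid cells, where both genes are highest in WT, had Mt1 at 944 to 1149 CPM and Mt2 at 515 to 696 CPM in 10 of the 12 libraries. Mt1 was at 944, 960 and 1079 CPM in WT, 1149, 1035 and 993 CPM in G12D, and 1026, 982 and 1351 CPM in E2-KO. In G12D/E2-KO it was at 1001, 973 and 1978 CPM. Mt2 was at 515, 558 and 681 CPM in WT, 696, 577 and 619 CPM in G12D, and 670, 645 and 977 CPM in E2-KO. In G12D/E2-KO it was at 694, 691 and 1413 CPM. The T3 libraries of E2-KO and G12D/E2-KO stood above all others for both genes. In E2-KO, Mt1 was lower in these cells than in early granulocytic ones at each time (1166, 1018 and 1606 CPM there). In G12D/E2-KO it was lower than in early granulocytic cells at T1 and T2 (1065 and 1252 CPM there) and higher at T3 (1013 CPM there).

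The G12D/E2-KO mean of Mt1 was 1.32 times that of WT, a log2 ratio of 0.41, and without G12D/E2-KO T3 the log2 ratio was -0.01. For Mt2 the log2 ratio was 0.67, and 0.24 without that library. All 3 G12D/E2-KO values of Mt2 lay above all 3 WT values, as for 8.21% of 9819 genes. With the deletion Mt1 was higher in 4 of 6 pairs and Mt2 in 5 of 6, while 6.13% of genes were higher in 6 of 6. Under the stricter gate, the cluster-based classes and the mean over cells, Mt2 was higher in 6 of 6 pairs. The share of genes was not computed for these settings. Mt1 was higher in 3 of 6 pairs with the cluster-based classes and in 5 of 6 with rescaled library sizes. In no setting did the 6 deleted libraries lie wholly above the other 6. Early erythroid cells thus showed no separation of the kind seen in early granulocytic cells. G12D/E2-KO T3 gave 188 early erythroid cells.

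The values over all cells can be split into class shares and class levels. With the class shares of WT and the class levels of E2-KO, Mt1 would be at 620, 593 and 879 CPM at T1, T2 and T3, where 719, 693 and 776 CPM were measured. It thus fell short of the measured value at T1 and T2 and passed it at T3. With E2-KO shares and WT levels it would be at 495, 545 and 461 CPM, above WT at T1 and T2 and below it at T3. The means of these sums, 697 and 500.25 CPM beside 730 CPM measured and 496 CPM in WT, hide these opposite moves. With G12D/E2-KO levels and WT shares Mt1 would be at 556, 647 and 1058 CPM, above WT at each time, and with G12D/E2-KO shares and WT levels at 360, 425 and 533 CPM, below it at each time. For Mt2 in G12D/E2-KO the parts went opposite ways at each time, with means of 326 CPM with WT shares and mutant levels, 102 CPM with mutant shares and WT levels, and 169 CPM measured, against 199.5 CPM in WT. Early erythroid cells, which hold most Mt2, gave 29.6% of UMIs in WT and 11.3% in G12D/E2-KO. In G12D the sums for Mt2 had no common direction. They were 225, 153 and 221 CPM with WT shares and mutant levels, above WT at T1 and T2 and below it at T3. With mutant shares and WT levels they were 94.6, 175 and 114 CPM, above WT at T2 only.

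**Figure D5:**
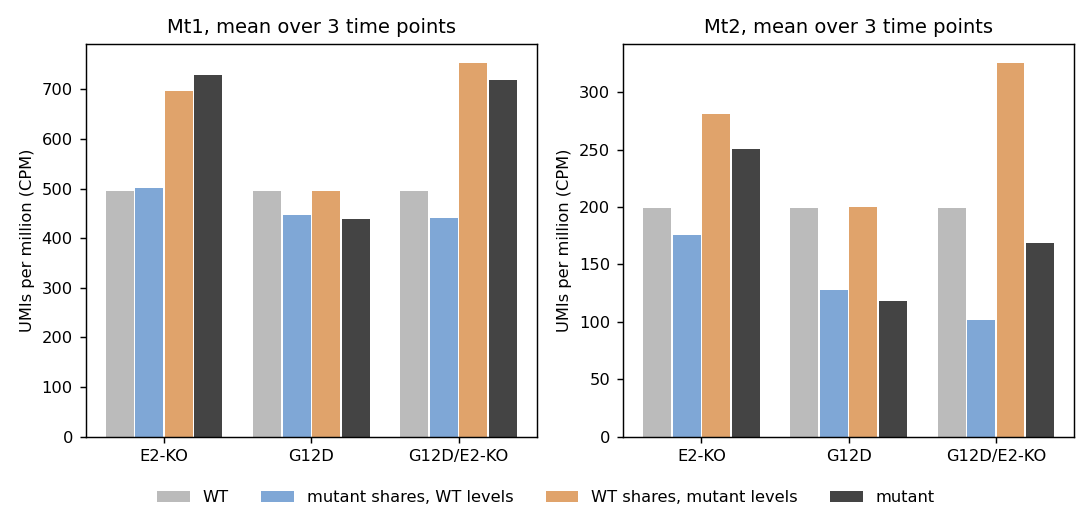
CPM over all cells for each mutant, mean over 3 time points: WT, mutant class shares with WT class levels, WT class shares with mutant class levels, and the mutant as measured. For Mt1 in E2-KO the bar with mutant levels (697) is a mean of 620, 593 and 879 and the measured one (730) of 719, 693 and 776, which differ in opposite directions, and for Mt2 in G12D/E2-KO both mixed bars differ from WT in opposite directions (102 and 326, WT 199.5).

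A smaller share of the Mt2 UMIs came from early erythroid cells in the libraries without Ezh2. Early erythroid cells gave 76.1 ± 6.47% of Mt2 UMIs in E2-KO and 65.0 ± 2.99% in G12D/E2-KO, against 88.4 ± 2.78% in G12D and 87.6 ± 2.73% in WT. Early granulocytic cells gave 36.4 ± 6.18% of Mt1 UMIs in E2-KO and 44.1 ± 9.68% in G12D/E2-KO, against 31.9 ± 5.59% in G12D and 19.4 ± 7.99% in WT. The share of UMIs of all genes that came from each class moved too. Early granulocytic cells gave 21.9% of them for E2-KO, 27.4% for G12D/E2-KO, 19.8% for G12D and 14.2% for WT. Early erythroid cells gave 25.4%, 11.3%, 17.1% and 29.6% in the same order. How much of the Mt1 and Mt2 shares this accounts for was not tested.

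Other genes of metal handling and stress were tested with edgeR on UMI counts summed per library, with time point as a factor and p-values adjusted over all genes. The 4 lists held 55 genes: 24 of zinc handling, 9 of copper handling, 9 of the glucocorticoid response and 13 of the oxidative stress response driven by NRF2. Over all cells 52 of them were tested. In E2-KO 2 rose and none fell, while 1.65% of 13143 genes passed. In G12D none passed, with 9 below 0.05 before adjustment, none passing by DESeq2 and 0.107% of all genes passing. In G12D/E2-KO 2 rose and 4 fell, while 5.71% of all genes passed. The median log2 change of the tested list genes was 0.10, 0.01 and 0.09 in the 3 mutants, beside 0.00, -0.01 and 0.01 for all genes.

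Mtf1 and its target Slc30a1, the zinc exporter of the plasma membrane, did not pass in any comparison. Mtf1 was at 27.8 ± 3.598 CPM over all WT cells and 26.8 ± 3.70 in E2-KO (log2 change -0.07, adjusted p = 0.806), and 25.8 ± 4.26 in G12D/E2-KO (-0.17, adjusted p = 0.388). Slc30a1 was at 3.65 ± 0.415 CPM in WT, 4.95 ± 1.62 in E2-KO (0.39 ± 0.23 SE, adjusted p = 0.413) and 4.89 ± 0.633 in G12D/E2-KO (0.36 ± 0.22 SE, adjusted p = 0.324). In early granulocytic cells Mtf1 was at 38.9 ± 8.19 CPM in WT and 41.6 ± 5.72 in E2-KO, and Slc30a1 at 2.65 ± 0.269 and 2.60 ± 0.421. Between WT and E2-KO, neither gene thus showed the separation that Mt1 and Mt2 showed in those cells. Slc30a1 was low there, so a small change could be missed.

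The gene of these lists with the smallest adjusted p over all cells was Slc30a4, a transporter that moves zinc into vesicles. It was at 1.07, 1.10 and 0.922 CPM in WT and at 4.37, 4.03 and 5.94 CPM in E2-KO, 2.15 ± 0.30 higher on the log2 scale (SE; adjusted p = 0.00465 by edgeR). In G12D/E2-KO it was at 3.68, 4.63 and 6.35 CPM (2.13 ± 0.30, adjusted p = 0.00448). It passed without any 1 of the 12 libraries in both comparisons. By class it was at 5.30 ± 2.49 CPM in E2-KO early granulocytic cells and 0.677 ± 0.110 in WT ones (n = 3). It had no UMI in WT early erythroid cells, where Mt1 and Mt2 are highest.

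Mt3, the neighbour of Mt2, was at the edge of detection. It had 0, 1 and 2 UMIs in the WT libraries and 16, 11 and 12 in those of E2-KO, a CPM ratio of 14.7 with a 95% exact counting interval of 4.66 to 74.2. It passed the edgeR test (adjusted p = 0.0217), and still did with 7 of the 12 libraries left out singly. In G12D/E2-KO it had 6, 7 and 5 UMIs, a ratio of 6.40 with an interval of 1.87 to 33.9, and did not pass. Mt4 had at most 3 UMIs in any library.

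The remaining calls over all cells were in G12D/E2-KO. Atox1, the copper chaperone, rose by 0.53 ± 0.12 (log2, SE), from 368 to 553 CPM (edgeR adjusted p = 0.0362), and passed in 4 of the 12 fits with 1 library left out. Slc39a8, a zinc importer, fell by 0.80 ± 0.20 (adjusted p = 0.0439) and passed in 5 of them. Of the NRF2 targets, the quinone reductase gene Nqo1 fell by 1.38 ± 0.27 (adjusted p = 0.0213) and Gclm, a subunit of the enzyme that starts glutathione synthesis, by 0.75 ± 0.16 (adjusted p = 0.0283), and they passed in 9 and 7 of them. Hmox1, heme oxygenase, fell by 1.34 ± 0.33 (adjusted p = 0.0439) and is named after its value was seen, to complete the count, and it passed in 5 of the 12 fits. Nqo1, Gclm and Slc39a8 were at 15.6, 356 and 27.6 CPM in WT early erythroid cells and at 1.61, 72.4 and 5.94 CPM in WT early granulocytic cells, and early erythroid cells gave 11.3% of UMIs in G12D/E2-KO against 29.6% in WT. The part of that shift in their fall was not tested. None of these 3 passed within early erythroid cells.

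Within early erythroid cells 41 of the 55 list genes were tested. With Ezh2 deleted, with or without G12D, the same 2 genes rose and none fell, while 2.48% and 2.95% of 9819 genes passed. In G12D none passed, with 3 below 0.05 before adjustment, none by DESeq2 and 0.183% of all genes passing. Slc30a10, a member of the zinc exporter family that carries manganese, was at 6.66, 2.28 and 1.495 CPM in WT and at 12.1, 14.3 and 10.8 CPM in E2-KO (log2 change 1.95 ± 0.35, adjusted p = 0.00429). In G12D/E2-KO it was at 25.2, 17.7 and 7.49 CPM (2.38 ± 0.37, adjusted p = 0.00162). Atox1 rose from 398 ± 17.2 CPM in WT to 627 ± 73.0 in E2-KO (0.67 ± 0.12, adjusted p = 0.00217) and to 568 ± 16.6 in G12D/E2-KO (0.58 ± 0.12, adjusted p = 0.00948). No gene of the glucocorticoid or NRF2 lists passed in these cells by edgeR. In G12D/E2-KO the 7 glucocorticoid genes tested had a median log2 change of 0.54, beside 0.02 for all genes, with 2 below 0.05 before adjustment and 1 passing by DESeq2. That gene was Fkbp5, a chaperone partner of the glucocorticoid receptor, named after its values were seen. It was at 57.6 CPM in G12D/E2-KO T3, the library where Mt1 and Mt2 stood highest, and at 10.4 to 17.8 CPM in the other 11 (edgeR adjusted p = 0.0794). Tsc22d3, the other of the 2, was at 41.7 CPM there and at 4.99 to 20.2 CPM in the others (adjusted p = 0.213). The rest of the list did not move as 1. Nr3c1 (73.0 CPM) and Ddit4 (9.83 CPM) were also highest there, and Dusp1 (2.81 CPM) was lowest. Klf9 was at 44.5 CPM there and 44.3 in G12D T3, and Per1 at 30.4 and 31.0. In E2-KO T3, where Mt1 and Mt2 were also high, Fkbp5 was at 17.8 and Tsc22d3 at 13.4 CPM. A part of glucocorticoids in Mt1 and Mt2 was not tested.

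The 5 genes whose profile over the 12 libraries in early erythroid cells lay nearest to that of Mt1 and Mt2 were Slc7a5, Irak1, Amd1, Naf1 and Nup155. The measure was the root mean square difference of centred log2 CPM, at 0.13, 0.17, 0.17, 0.18 and 0.18. It was 0.13 between Mt1 and Mt2 themselves, and its median was 0.45 over 2332 genes above a set minimum of level and spread. Those genes were not matched in level to Mt1 and Mt2, whose means over the 12 libraries were 1123 and 728 CPM. Slc7a5, a transporter of large neutral amino acids, was at 33.7 to 55.3 CPM in 11 libraries and at 74.0 CPM in G12D/E2-KO T3. All 5 were highest in that library, at 50.6 CPM for Nup155 to 74.0 CPM for Slc7a5. How much of the likeness rests on that library was not measured.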

How the data were processed

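Single-cell libraries were made with the 10x Genomics 3′ kit. The authors processed reads with Cell Ranger against mm10 and, per their methods, removed cells with high mitochondrial shares and Scrublet doublets. The deposited tables hold raw UMI counts per gene and cell. The 2 genes and all lists were chosen with earlier results of these data known. Cells present in 2 tables were matched by cosine and counted once. Each cell got its class from 13 marker lists (z-scored mean log values, score above 0.5 and margin above 0.25), with no doublet call added. CPM is UMIs of a gene per 1000000 UMIs of a library or class. Mt1 and Mt2 levels were not tested. List genes were tested with edgeR 4.0.16 (quasi-likelihood, TMM, filterByExpr, genotype and time point, 12 libraries, threshold 0.05), where SE is the log2 change over the root of F. The fit was tested on simulated counts. Same-time libraries did not all deviate together (correlation -0.25 to 0.51 over 18 pairs), and time point was kept as in the design. p-values measure the spread between these libraries only. Intervals cover counting error only. Named list genes were Mtf1, Slc30a1 and, per comparison, the 5 with the smallest adjusted p of those that passed; 5 further genes were named by nearness of profile. A DESeq2 1.42.0 fit, other scalings, no low-count filter, a stricter gate, cluster-based classes, tables as deposited, the 2 genotypes alone and each library left out were tried.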

Additional observations from a re-analysis of the deposited data

Results flagged for a closer look

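In early granulocytic cells Mt2 was higher than in WT at each of the 3 time points in E2-KO, a ratio of means of 5.04, and lower at each of them in G12D, a ratio of 0.578. The first ratio is 8.73 times the second. In G12D/E2-KO Mt2 was higher than in WT at each time, a ratio of 3.30, which is 5.72 times that of G12D. Opposite directions in every library drew attention to both, and neither difference was tested. The comparisons share the WT libraries. Mt2 rested on 22 to 44 UMIs per WT library and 25 to 27 per G12D library, and the thinned shares of these cells with an Mt2 UMI lay above those of B lymphoid cells in WT T1, WT T2 and G12D T3 and below them in the other 3, so no G12D difference is read. With the shared cells left in G12D T1 the G12D log2 ratio was 0.17, so the G12D mean was then above WT and both multiples would be smaller.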

How the results depend on the processing

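With tables as deposited, the Mt2 log2 ratio of G12D in early granulocytic cells was 0.17 in place of -0.79, since the 2896 shared cells, whose owner is uncertain, were then counted in G12D T1 too. With 1 library left out, the log2 ratios against WT ran from 0.50 to 0.66 for Mt1 over all E2-KO cells, from -0.87 to 0.049 for Mt2 over all G12D/E2-KO cells and from 1.93 to 2.51 for Mt2 in E2-KO early granulocytic cells. In early erythroid cells they ran from 0.013 to 0.26 (Mt1, E2-KO), 0.17 to 0.51 (Mt2, E2-KO), -0.01 to 0.58 (Mt1, G12D/E2-KO) and 0.24 to 0.85 (Mt2, G12D/E2-KO), the lowest without the T3 library of the mutant. Of the 168 log2 ratios under other alternatives, 159 stayed within the spread, 9 moved and 6 had the other sign. Of 216 with a library left out, 196 stayed within it, 20 moved and 15 had the other sign, and the cause was not tested.

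List genes called over all cells in E2-KO numbered 2, and 1 with no replicate block, 4 by DESeq2 and 4 with only the 2 genotypes compared. In early erythroid cells G12D gave 1 with only the 2 genotypes compared in place of 0, and G12D/E2-KO gave 4 with no filter on low counts in place of 2. The fit without the time point block changed no other count by over 1.5 times. With 1 library left out the counts over all cells ran from 1 to 4 (E2-KO), 0 to 1 (G12D) and 1 to 7 (G12D/E2-KO), and in early erythroid cells from 1 to 2 (E2-KO) and 1 to 3 (G12D/E2-KO). Stem cell Mt2 (1 to 23 UMIs a library) and megakaryocytic Mt2 (0 to 60 UMIs) are limited by depth. Dropping cells with UMIs of Car1, Klf1, Ermap, Rhd or Aqp1 was chosen after seeing the data. It gave Mt2 log2 ratios in early granulocytic cells of 2.64, -0.52 and 1.87 in E2-KO, G12D and G12D/E2-KO.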

Other observations

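In late erythroid cells, which turn to globin transcripts, Mt1 was at 27.5 to 242 CPM in the 6 libraries with Ezh2 deleted and at 41.4 to 119 CPM in the other 6, and was higher in 3 of 6 pairs.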
